A study of Mus musculus with 3 samples.

Results

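The 10 genes described here are Inhba, Tgfb1, Tgfbi, Hbegf, Areg, Ereg, Vegfa, Pdgfa, Igf1 and Osm. They encode growth factors, or a protein induced by 1 of them, that tumor myeloid cells are known to make. They were chosen by name, with earlier results of these data known, and all 10 were found among the 27998 gene rows of each count matrix. The levels come from droplet single-cell RNA sequencing of sorted myeloid cells from C57BL/6J mice that carried subcutaneous tumors of B16F10, a mouse melanoma cell line. There were 3 groups with 1 library each. Control blood and control tumor came from animals labelled WT, and the Treg-depleted tumor came from an animal labelled FoxP3 DTR, an allele that lets regulatory T cells be removed with diphtheria toxin. Sorting kept CD45+ cells with CD11b or CD11c on their surface and removed cells with CD90, NK1.1, Ly6G, B220 or SigF. The ages, sexes, toxin doses and numbers of animals pooled are not given in the sources used here. Depletion and the FoxP3 DTR allele cannot be told apart. Because no group had replicates, no difference below was tested: every interval is a 95% interval for counting error alone, and a difference between groups is a difference between 2 libraries.

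Growth factors of these families are secreted or shed proteins that act on neighbouring cells. Inhba encodes the chain that pairs to form activin A, which signals through SMAD proteins as transforming growth factor beta (Tgfb1) does. Hbegf, Areg and Ereg encode membrane-anchored ligands of the epidermal growth factor receptor family that proteases release from the cell surface. Vegfa and Pdgfa act on vessels and on stromal cells, Igf1 is a survival and growth factor made by resident and repair-type macrophages, and Osm is an interleukin-6 family cytokine that signals through STAT3. In tumors, monocytes enter from the blood and become macrophages, and both are known sources of several of these factors.

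The level of a gene was its UMIs (unique molecular identifiers, 1 for each captured transcript) per 1000000 UMIs of the same cells, written CPM. A barcode counted as a cell from 1000 UMIs and 400 genes upward, with no more than 10% of its UMIs from mitochondrial genes. Control blood gave 5550 cells, control tumor 4443 and the Treg-depleted tumor 4434, with medians of 3550, 6452 and 3820 UMIs. Monocyte-macrophage lineage cells made up 55.4%, 80.2% and 89.7% of them, in that order. Of these lineage cells, those with at least 2 more classical monocyte than macrophage markers detected form the monocyte range, those with at least 2 more macrophage markers the macrophage range, and the others the middle range. The ranges cut a continuum: 34.8% of the lineage cells of control tumor, and 52.9% of those of the Treg-depleted tumor, lay within 1 marker of a cut. Between 27 and 36 cell barcodes were shared by each pair of libraries; without these cells, the counts of genes past 2-fold were the same in both comparisons, and Areg between tumor and blood had a log2 ratio of 10.18 in place of 9.23. Foxp3 had at most 1 UMI in a library, and the sort removes T cells, so the depletion itself cannot be checked here.

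Within the lineage, the summed level of 10 macrophage markers (among them C1qa, Apoe, Mrc1 and Trem2) was 11693 CPM in control tumor and 2206 CPM after depletion, 5.30-fold lower. The 8 classical monocyte markers summed to 3560 and 6434 CPM, 1.81-fold higher after depletion. The 8 markers of the lineage in general summed to 19217 and 6879 CPM, and the 10 neutrophil markers to 336 and 648 CPM. None of these 4 lists had a marker at 0 UMIs in any library. Even inside the macrophage range the macrophage markers were 3.97-fold lower after depletion, and inside the middle range 1.88-fold lower. This shift in the makeup of the lineage moves with every difference between the tumor libraries described below, and its part in them was not tested. Melanoma markers were at 15.4 and 7.96 CPM in the lineage, with 7 of 7 found and none at 0 in the tumors, and fibroblast markers were under 1 CPM in sum.

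**Figure D1:**
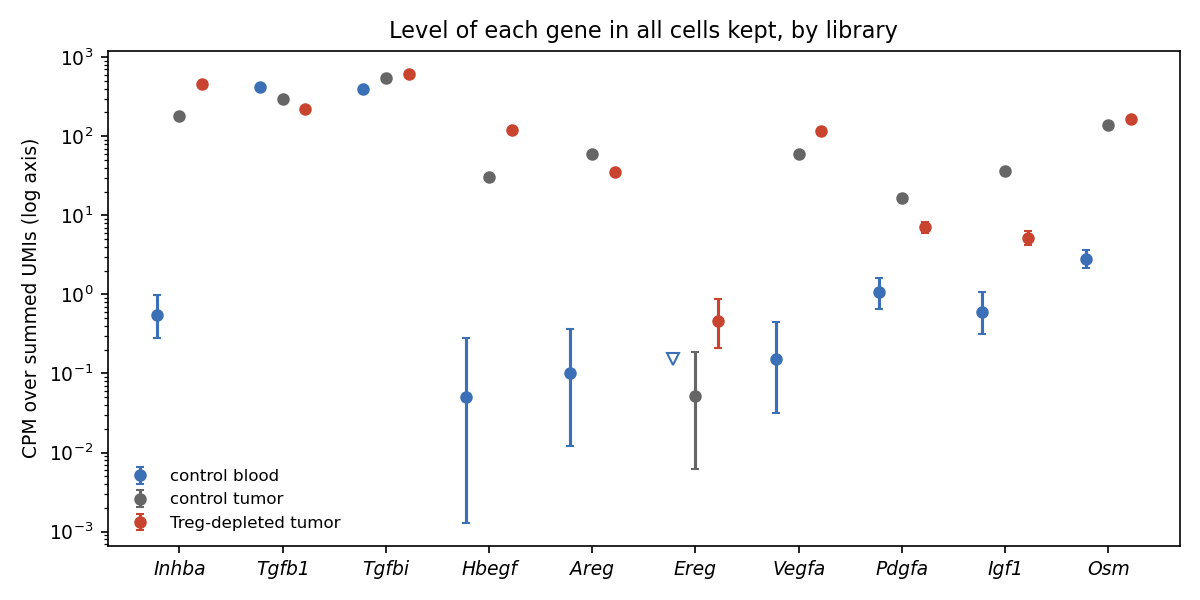
Level of each of the 10 genes over all cells of each library, in CPM on a log axis. Points are summed levels, bars are 95% Poisson counting intervals, and the open triangle marks the level of 3 UMIs for Ereg in blood, where it had 0 UMIs. Inhba, Hbegf, Areg, Vegfa, Pdgfa, Igf1 and Osm sit lower in blood than in either tumor, while Tgfb1 is highest in blood, and Tgfbi is lowest there at 399 CPM.

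The first comparison asks which of the genes differ between myeloid cells in the blood and in the tumor of control animals. Of the 9 genes with more than 3 UMIs in either library, 7 were at least 2-fold higher in control tumor, where 15.8% of all 13831 genes were. None was at least 2-fold lower, where 24.4% of all genes were. The genes were chosen as products of tumor myeloid cells with earlier results known, so these shares are a background and not a test. The median log2 ratio of the 9 genes was 5.90, against -0.30 for all genes, so a gene that moved with the bulk of genes would sit near -0.30. Among monocyte range cells alone, 2875 in blood and 842 in tumor, 7 of 9 were again at least 2-fold higher, against 12.1% of genes, and none lower, against 28.2%. Igf1 is 1 of those 7 only on 7 UMIs in each library, and its interval includes no difference. Among the 208 and 316 cells with type 2 dendritic cell markers, 7 of 9 were higher, against 12.7% of genes, and none lower, against 26%. Those tumor cells carried macrophage markers at 6548 CPM, and 33.9% of them were in cluster 0, led by Ccl8 and C1qa. Igf1 was at 20.6 CPM and Pdgfa at 12.99 CPM in them, and at 0.948 and 2.61 CPM in the dendritic cluster 8 of control tumor.

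The second comparison asks which of the genes differ between the myeloid cells of tumors with and without Treg depletion. It uses the same control tumor library as the first, so the comparisons are not independent. Within the lineage, 3 of 10 genes were at least 2-fold higher after depletion, Inhba, Hbegf and Ereg, where 10.5% of 12952 genes were, and Ereg rests on 9 UMIs against 2. Igf1 and Pdgfa, 2 of 10, were at least 2-fold lower, where 9.65% of genes were. Over all cells the counts were also 3 and 2 of 10, where 9.57% and 10.7% of 13598 genes were. The median log2 ratio in the lineage was 0.08 for the 10 genes and -0.04 for all genes. The 10 genes thus divide by direction: the activin chain, Hbegf, Vegfa and, on few UMIs, Ereg had higher levels, Igf1, Pdgfa, Tgfb1 and Areg lower levels, and Tgfbi and Osm were each 1.06-fold higher.

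Inhba lies at chr13:16011851-16031621 on the plus strand of GRCm38. It was nearly absent from blood and abundant in both tumors. The library levels were 0.555 CPM in blood (11 UMIs), 183 CPM in control tumor (7062 UMIs), and 462 CPM in the Treg-depleted tumor (8951 UMIs). Blood lies far below both tumors, with a log2 ratio of control tumor to blood of 8.36 (interval 7.52 to 9.37). None of the 11 blood UMIs was in a monocyte range cell. With 0 UMIs set to 3, the monocyte range of control tumor was higher by a log2 ratio of 10.04, from 1221 UMIs. The lower end of the counting interval was 9.74. By gated type, 5 of the 11 UMIs were in nonclassical monocyte-like cells and 2 in neutrophil-like cells. By cluster, 4 were in each of the neutrophil-like clusters 13 and 14 and 2 in the nonclassical cluster 5, so their cell type is unsettled.

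The 250 bases before the annotated start of Inhba, chr13:16011601-16011850 on the plus strand, are shown with those of Tgfb1, Areg and Vegfa below, whose levels after depletion differ in direction. Of the 10 genes, 7 matched the table of start sites, and these 4 have a window that overlaps no annotated exon, and the windows of Igf1, Pdgfa and Tgfbi, which do, are not shown. Sequences are from RefSeq, build GRCm38.p6. They were searched on both strands for AP-1 (TGANTCA), NF-kB (GGGNNNNNCC), hypoxia response (ACGTG), cyclic AMP response (TGACG) and TATA box (TATAAA) letters. Of all 32851 windows of this length, 6.75%, 45.8%, 16.6%, 17.8% and 12.4% hold a match, in that order. Capitals mark a match, which is a match of letters and not a shown binding site. For Inhba the matches are 1 for TATA and 1 for NF-kB.
Inhba: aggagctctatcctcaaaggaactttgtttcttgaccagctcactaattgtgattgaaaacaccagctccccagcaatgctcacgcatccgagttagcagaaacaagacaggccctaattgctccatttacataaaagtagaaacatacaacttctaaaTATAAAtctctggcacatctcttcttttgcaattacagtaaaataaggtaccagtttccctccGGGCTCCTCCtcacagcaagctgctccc

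In control tumor Inhba was highest in the middle range at 327 CPM (312 to 342), next in the monocyte range at 282 CPM (266 to 298) and lowest in the macrophage range at 173 CPM (167 to 179). After depletion the order was the same, with 547 CPM (529 to 564), 499 CPM (481 to 517) and 424 CPM (405 to 444). None of these intervals overlap within a library. Cells with type 2 dendritic cell markers had 90.2 and 79.2 CPM, and their ratio did not differ from 0 beyond counting error (log2 -0.19, -0.68 to 0.27), with macrophage markers at 6548 and 944 CPM in the same cells. The pDC-like cells of control tumor (57 cells with plasmacytoid dendritic cell markers) had 18.5 CPM. The Treg-depleted tumor held 7 such cells, too few to give a level.

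The Inhba level was higher after depletion in each range, but not within the lineage clusters given below. The log2 ratio was 0.82 (0.73 to 0.92) in the monocyte range, 0.74 (0.66 to 0.82) in the middle range and 1.29 (1.21 to 1.38) in the macrophage range. Over the lineage, the level was 222 CPM in control tumor and 499.9 CPM after depletion (log2 1.17, 1.12 to 1.22). In 1000 UMIs drawn from each cell, 13.3% of control tumor and 25.6% of Treg-depleted lineage cells held an Inhba UMI. Without this thinning the shares were 30.7% and 43.5%, at median depths of 5982 and 3900 UMIs, so the deeper library had the lower share. Among the pDC-like cells of control tumor, of median depth 4955 UMIs, the thinned share was 0 and the unthinned share 3.51%. The pDC-like cluster 16 of that library, with 65 cells, held 0 Inhba UMIs. RNA outside cells, read from barcodes of at most 100 UMIs, held Inhba at 79.4 CPM in control tumor and 235 CPM after depletion, below the lineage level of the same library.

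Inhba was unevenly spread over cells of the same kind. Clusters were made from the cells of all libraries without using any of the 10 genes. In the Treg-depleted tumor, cluster 1, led by Mmp12, Mmp13, Cd200 and Serpinb2, held 46.6% of cells and 85.2% of the Inhba UMIs, at 860.2 CPM. Cluster 3, led by Retnla, Rnase2a and Mrc1, held 29.1% of cells and 5.21% of the UMIs, at 83.7 CPM (76.3 to 91.7), below the level outside cells. The monocytes of cluster 7 (400 cells) stood between them at 273 CPM. The 39 control tumor cells that fell in cluster 1 were led by Cx3cr1 and by genes known for induction in low oxygen (Adm, Egln3, Ero1l), and had the highest Inhba level of any tumor cluster, 1259 CPM (1107 to 1427). In control tumor, cluster 0, led by Ccl8 and C1qa, had 170 CPM, and the monocyte clusters 4 and 7 had 278 and 257 CPM. Clusters 0, 1 and 3 each came almost wholly from 1 tumor library, so a cluster there may stand for its library. The ranges therefore hold different clusters in each tumor: 85.5% of the macrophage range of control tumor was in cluster 0, and 57.0% and 37.6% of that range after depletion were in clusters 1 and 3.

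Within the lineage clusters found in both tumors, Inhba was not higher after depletion. It was lower in cluster 0 (88.2 CPM in 36 cells after depletion), in cluster 1 and in cluster 4 (187 CPM in 141 cells), and the intervals of cluster 7 overlapped. In the dendritic cluster 8 Inhba was higher, at 30.6 CPM (25.5 to 36.3) and 46.9 CPM (36.9 to 58.8). Cells of the same cluster were not alike in both tumors. Macrophage markers were at 15497 and 8441 CPM in cluster 0, 3440 and 931 CPM in cluster 4, and 2693 and 773 CPM in cluster 7. Cluster 4 was led by Gm9733, Ly6i and Plac8 in control tumor and by Spic, Treml4 and Ace after depletion. This limit applies to the cluster comparisons of every gene. Single cells held up to 93 Inhba UMIs in control tumor and 58 after depletion.

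Tgfb1 lies at chr7:25687002-25705077 on the plus strand and encodes the latent cytokine that restrains many immune responses. Like Tgfbi, it differed by less than 2-fold between blood and control tumor. Levels were 415 CPM in blood, 294 CPM in control tumor and 221 CPM in the Treg-depleted tumor, from 8217, 11365 and 4294 UMIs. Blood was the highest library over all cells (log2 of control tumor over blood -0.50, -0.54 to -0.46), but this order did not hold in matched cells. In the monocyte range the tumor was higher, 531 against 432 CPM (log2 0.30, 0.23 to 0.37), and among cells with type 2 dendritic cell markers it was lower, 254 against 310 CPM (log2 -0.29, -0.47 to -0.10). The window before its start, chr7:25686752-25687001 on the plus strand, holds 7 NF-kB matches, of which 3 overlap, and no match of the other motifs.
Tgfb1: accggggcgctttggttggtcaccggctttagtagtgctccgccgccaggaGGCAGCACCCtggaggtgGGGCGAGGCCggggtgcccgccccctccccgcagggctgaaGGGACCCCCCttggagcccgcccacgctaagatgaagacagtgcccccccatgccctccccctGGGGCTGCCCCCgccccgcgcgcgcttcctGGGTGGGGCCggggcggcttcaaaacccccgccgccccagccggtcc

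Within the tumor lineage, Tgfb1 was lower the more macrophage markers a cell had. Control tumor had 531 CPM in the monocyte range, 395 CPM in the middle range and 252 CPM in the macrophage range. The Treg-depleted tumor had 326, 192 and 152 CPM in the same order. Each range was lower after depletion, with log2 ratios of -0.71 (-0.79 to -0.62), -1.05 (-1.14 to -0.95) and -0.73 (-0.85 to -0.61). Over the whole lineage the ratio was closer to 0, at -0.51 (-0.56 to -0.46), and with the ranges given the same weight in both libraries it was -0.79. Of the lineage clusters found in both tumors, 0 and 7 were lower after depletion, the intervals of cluster 4 overlapped, and cluster 1, with 39 control tumor cells, was higher (77.1 and 181 CPM). The thinned share of lineage cells with a Tgfb1 UMI was 29.1% and 18.7%, and 77.3% and 48.6% without thinning. The share in pDC-like cells of control tumor was 21.1% thinned and 71.9% unthinned, and their level was 241 CPM, near that of the macrophage range.

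Tgfbi lies at chr13:56609523-56639562 on the plus strand and encodes a secreted adhesion protein named for its induction by transforming growth factor beta. It was abundant everywhere, with 399 CPM in blood, 544 CPM in control tumor and 616 CPM in the Treg-depleted tumor. The log2 ratio of control tumor over blood was 0.45 (0.41 to 0.49) over all cells and 0.26 (0.19 to 0.33) in the monocyte range. Control tumor had 564, 574 and 639 CPM from the monocyte to the macrophage range, and the Treg-depleted tumor 586, 644 and 744 CPM. The ratios after depletion were small in each range, at 0.06 (-0.02 to 0.13), 0.16 (0.10 to 0.23) and 0.22 (0.16 to 0.28). Tgfbi and Tgfb1 thus had opposite orders over the ranges. By cluster the directions of Tgfbi were mixed. It was higher after depletion in cluster 0 (576 and 760 CPM) and cluster 1 (380 and 606 CPM). In cluster 4 it was lower (668 and 560 CPM), and in cluster 7 the intervals overlapped (510 and 569 CPM). In control tumor the monocyte cluster 4 was thus above cluster 0, and cluster 7 below it. The level of Tgfbi in pDC-like cells of control tumor was 108 CPM, and in their cluster 6.14 CPM.

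Hbegf, on the minus strand of chromosome 18, encodes heparin-binding EGF-like growth factor. Among the 9 genes with more than 3 UMIs in both tumors, it had the largest log2 ratio after depletion. It had 1 UMI in all blood cells (0.0504 CPM), 1196 UMIs in control tumor (30.9 CPM) and 2325 UMIs in the Treg-depleted tumor (119.9 CPM). The blood ratio therefore has a wide interval (log2 9.26, 6.78 to 14.56), and the single blood UMI was in an NK cell-like cell. After depletion the lineage level was 125 CPM against 33.3 CPM (log2 1.91, 1.79 to 2.02). The log2 ratio was 2.39 (2.07 to 2.73) in the monocyte range, 2.36 (2.12 to 2.62) in the middle range and 1.72 (1.55 to 1.89) in the macrophage range. Hbegf is the only 1 of the 9 genes plotted by range that was at least 2-fold higher in all 3.

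Among the ranges, Hbegf was lowest in the monocyte range of both tumors. In control tumor the monocyte range had 20.1 CPM (87 UMIs) and the middle range 27.4 CPM (154 UMIs), with overlapping intervals. The macrophage range of control tumor was highest at 38.7 CPM. After depletion the monocyte range was again lowest at 105 CPM, while the middle range with 141 CPM and the macrophage range with 128 CPM had overlapping intervals. Unlike Inhba, Hbegf did not separate the main clusters of the Treg-depleted tumor: clusters 1 and 3 had 145 and 133 CPM, with overlapping intervals (137 to 153 and 124 to 143). The neutrophil cluster 11 of that library had 217 CPM from 230 cells, and the dendritic cluster 8 had 20.7 CPM. Of the lineage clusters found in both tumors, cluster 7 was higher after depletion (23.8 and 77.6 CPM), while the intervals overlapped in cluster 0 (37.7 and 38.6 CPM), cluster 1 (149 and 145 CPM) and cluster 4 (23.9 and 14.1 CPM). The level was also higher after depletion in clusters 8 and 11, from 6.16 and 24.99 CPM in control tumor. The thinned share of lineage cells with a UMI was 2.92% in control tumor and 10.1% after depletion, and 11.8% and 25.2% unthinned. In pDC-like cells of control tumor it was 0 thinned and 3.51% unthinned, and their cluster 16, with 65 cells, held 0 Hbegf UMIs. Hbegf outside cells also differed, at 14.9 CPM in control tumor and 103 CPM after depletion, close to the lineage level of the latter.

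Areg, at chr5:91139599-91148432 on the plus strand, encodes amphiregulin, a ligand of the same receptor known for roles in tissue repair. It went the other way. There were 2 UMIs in blood (0.101 CPM), 2339 in control tumor (60.5 CPM) and 687 in the Treg-depleted tumor (35.4 CPM). The control tumor exceeded blood by a log2 ratio of 9.23 (7.37 to 12.27), and the depleted library had the lower of the tumor levels. The window before its start, chr5:91139349-91139598 on the plus strand, holds 3 cyclic AMP response matches, of which 2 overlap, 1 NF-kB match and 1 TATA match.
Areg: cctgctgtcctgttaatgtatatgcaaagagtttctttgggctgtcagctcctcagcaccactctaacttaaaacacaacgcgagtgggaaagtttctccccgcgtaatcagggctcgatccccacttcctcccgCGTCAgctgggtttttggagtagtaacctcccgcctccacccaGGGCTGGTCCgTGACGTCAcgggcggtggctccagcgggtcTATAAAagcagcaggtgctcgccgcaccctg

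Areg was lower after depletion in each range, with log2 ratios of -0.65 (-0.98 to -0.33), -0.86 (-1.07 to -0.65) and -0.60 (-0.87 to -0.35) from the monocyte to the macrophage range. No range reached a 2-fold difference. The middle range was highest in both tumors, at 83.3 CPM in control tumor and 45.8 CPM after depletion. Cells with type 2 dendritic cell markers were higher still, at 134 CPM (123 to 146) and 73.7 CPM (52.7 to 100.4). The dendritic cluster 8, with macrophage markers at 685 and 583 CPM, had Areg at 89.8 CPM (81.0 to 99.3) and 37.5 CPM (28.7 to 48.3). Clusters 0, 4 and 7 were also lower after depletion, and cluster 1 was higher, at 10.3 and 51.1 CPM. The level outside cells, 65.1 CPM in control tumor and 40.3 CPM after depletion, was above that of the whole lineage in both.

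Areg was held by few cells. In control tumor, 5% of lineage cells held 91.0% of its 1535 UMIs, while for Vegfa, with 1748 UMIs in the same cells, 5% of cells held 39.4%. After depletion, the same share of cells held 100% of Areg UMIs and 36.7% of Vegfa UMIs. The 100% is fixed in advance, because only 4.42% of those lineage cells held an Areg UMI. The totals there, 614 UMIs for Areg and 2077 for Vegfa, are also not alike, as they were in control tumor. Cells with at least 10 Areg UMIs numbered 70 in control tumor and 16 after depletion. In control tumor they were 18 of 316 cells with type 2 dendritic cell markers (5.70%), 28 of 1793 macrophage range cells (1.56%) and 5 of 842 monocyte range cells. The thinned share of lineage cells with a UMI differed little between the tumors, 2.78% and 2.26%, and was 8.56% and 4.42% unthinned. In pDC-like cells of control tumor it was 0 thinned and 7.02% unthinned, so the unthinned share there is near that of the lineage. The pDC-like cluster 16 of control tumor, with 65 cells, held 0 Areg UMIs.

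**Figure D2:**
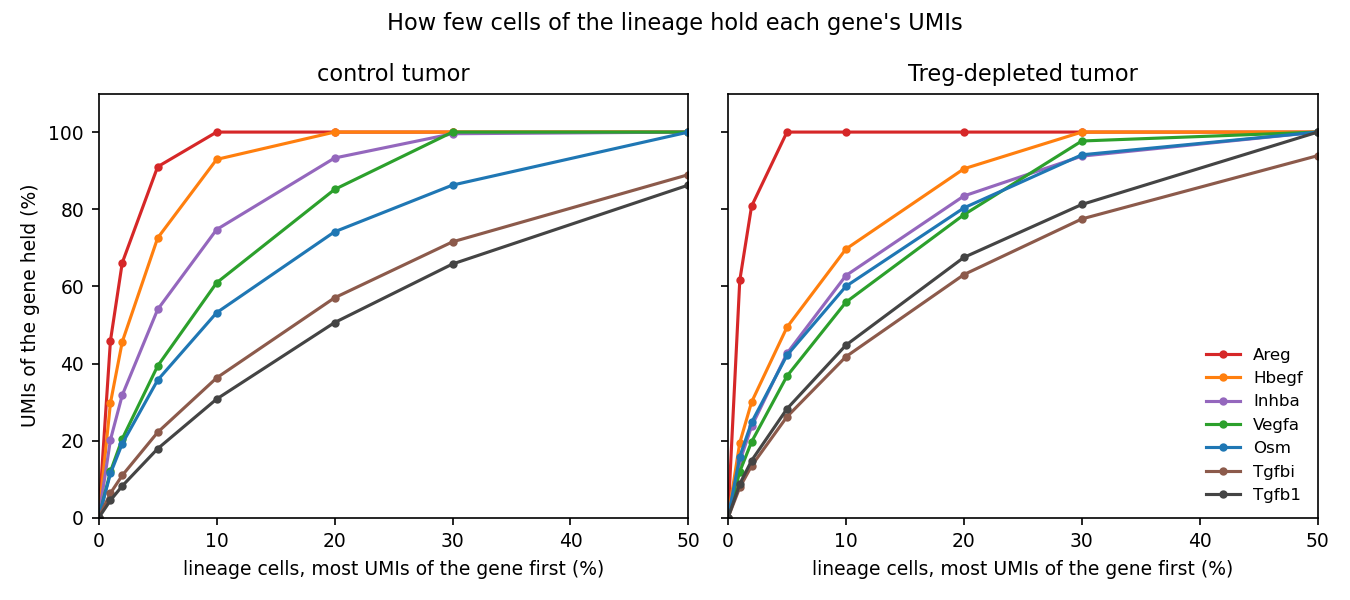
Share of a gene's UMIs (%, vertical) held by the given share of lineage cells (%, horizontal), with cells ordered by their UMIs of that gene, for 7 genes in each tumor. Each point is a computed share, and lower total counts push a curve up. Areg reaches 91.0% at 5% of cells in control tumor, Vegfa 39.4% with a similar total, and Tgfb1, with many more UMIs, 17.9%.

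Ereg, at chr5:91074622-91093646 on the plus strand next to Areg, encodes epiregulin. It was close to undetected, with 0 UMIs in blood, 2 in control tumor and 9 after depletion. A count of 0 in blood allows a level of up to 0.151 CPM. Those 9 UMIs were all in lineage cells, 7 of them in the macrophage range and 2 in the middle range (lineage log2 2.82, 0.55 to 6.07). They came from very few cells: 6 UMIs in 0.145% of 2068 cluster 1 cells and 3 in 0.0774% of 1292 cluster 3 cells. The interval takes each UMI as independent, so it may be too narrow here.

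Vegfa, at chr17:46016993-46032369 on the minus strand, encodes the main growth factor of blood vessels and is induced in low oxygen. It had 3 UMIs in blood (0.151 CPM), all in neutrophil-like cells, 2297 in control tumor (59.4 CPM) and 2268 in the Treg-depleted tumor (117 CPM). The log2 ratio of control tumor over blood was 8.62 (7.07 to 10.89). In the monocyte range, with 0 UMIs in blood set to 3 and 222 in control tumor, it was 7.58. The lower end of that counting interval was 7.27. The window before its start, chr17:46032378-46032627 read from the minus strand, holds 1 NF-kB match. A second annotated start, whose window overlaps exons and is not shown, has a hypoxia response match at -211 to -207 and a cyclic AMP response match at -209 to -205 from that start.
Vegfa: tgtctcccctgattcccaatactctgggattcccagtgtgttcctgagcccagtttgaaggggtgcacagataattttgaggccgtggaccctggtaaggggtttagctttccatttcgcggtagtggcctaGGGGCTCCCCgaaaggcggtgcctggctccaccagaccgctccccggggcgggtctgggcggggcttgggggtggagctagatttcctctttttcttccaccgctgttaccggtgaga

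After depletion Vegfa was higher in each range: log2 0.88 (0.65 to 1.11) in the monocyte range, 1.00 (0.83 to 1.18) in the middle range and 1.07 (0.92 to 1.21) in the macrophage range. Over the lineage the ratio was 0.90 (0.81 to 0.99), from 64.6 to 121 CPM. The thinned share of lineage cells with a UMI was 6.03% and 11.9%, and 27.3% and 31.2% unthinned, against 0 and 3.51% in the pDC-like cells. As with Inhba, the highest cluster of the Treg-depleted tumor was cluster 1, with 172 CPM and 67.1% of the Vegfa UMIs, against 82.8 CPM in cluster 3 and 55.8 CPM in cluster 7. The 39 control tumor cells of cluster 1 had 149 CPM (99.8 to 214), against 67.1 CPM in cluster 0. Within each lineage cluster found in both tumors, 0, 1, 4 and 7, the intervals overlapped, with 61.8 and 40.5 CPM in cluster 4 and 43.6 and 55.8 CPM in cluster 7. In the dendritic cluster 8 Vegfa was higher after depletion, at 22.98 and 46.9 CPM. Vegfa outside cells was at 51.1 CPM in control tumor and 109.7 CPM after depletion.

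Other genes known for induction in low oxygen, and Hif1a with them, were examined beside Vegfa. Of 13, 7 were at least 2-fold higher in the lineage after depletion and none lower, where 10.5% and 9.65% of all genes were, with a median log2 ratio of 1.11 against -0.04 for all genes. Egln3, an oxygen-sensing hydroxylase, was at 9.86 and 66.1 CPM (log2 2.74). Ero1l, which makes disulfide bonds in the endoplasmic reticulum, was at 109 and 357 CPM (1.71), and Hif1a, a subunit of the hypoxia-inducible factor, at 167 and 392 CPM (1.23). Slc2a1, a glucose transporter, was below the 2-fold line (0.80), and Ldha, a glycolytic enzyme, had -0.11. Pgk1 (0.95), P4ha1 (0.21) and Adm (0.18) were also short of it. Car9 had a lower level after depletion, at 5.10 and 2.96 CPM (-0.78, -1.28 to -0.31). Between blood and control tumor, 10 of the 13 were at least 2-fold higher in the tumor and none lower, where 15.8% and 24.4% of all genes were.

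Pdgfa, at chr5:138976014-138997370 on the minus strand, encodes a platelet-derived growth factor chain that acts on stromal cells. It had 21 UMIs in blood (1.06 CPM), 646 in control tumor (16.7 CPM) and 137 in the Treg-depleted tumor (7.06 CPM). The log2 ratio of control tumor over blood was 3.98 (3.35 to 4.68). Among the ranges of control tumor it was highest in the macrophage range, 23.2 CPM (21.0 to 25.6), against 8.01 CPM in the middle and 5.31 CPM in the monocyte range. After depletion the ranges had 8.56, 6.89 and 7.44 CPM in the same order, with overlapping intervals. The level was not particular to macrophages. The pDC-like cluster 16 had 21.5 CPM (8.63 to 44.2) in control tumor, from 7 UMIs. In blood that cluster had 88.1 CPM (28.6 to 205.6), from 5 UMIs in 18 cells. The lower lineage level after depletion (log2 -1.20, -1.49 to -0.91) was found in the macrophage range (-1.44, -1.97 to -0.94) and not in the middle range (-0.22, -0.83 to 0.40) or the monocyte range (0.49, -0.27 to 1.28). With each cell given the same weight the lineage ratio was -0.83, short of 2-fold. Within clusters 0, 1 and 4 the intervals of the tumors overlapped, and in cluster 7 Pdgfa was higher after depletion, at 4.44 and 14.2 CPM.

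Igf1, at chr10:87858265-87937042 on the plus strand, encodes insulin-like growth factor 1. Of the 10 genes it had the largest decrease after depletion and the closest tie to macrophage markers. It had 12 UMIs in blood (0.605 CPM), 1396 in control tumor (36.1 CPM) and 100 in the Treg-depleted tumor (5.16 CPM). Control tumor was far above the other libraries, with a log2 ratio to blood of 5.90 (5.09 to 6.85). In the monocyte range alone both libraries had 7 UMIs (log2 1.37, -0.37 to 3.11). In control tumor Igf1 was at 1.61 CPM in the monocyte range, 9.08 CPM in the middle range and 60.8 CPM (57.2 to 64.7) in the macrophage range. Cluster 0, led by Ccl8, C1qa and Pf4, held 98.3% of its UMIs and 47.2% of the cells.

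In the lineage Igf1 was at 40.6 CPM in control tumor and 5.17 CPM after depletion (log2 -2.97, -3.30 to -2.66). Within the macrophage range it was 4.92-fold lower (log2 -2.30, -2.73 to -1.90), beside the 3.97-fold lower macrophage markers of those same cells. In the middle range the ratio was -1.34 (-2.09 to -0.62), and in the monocyte range, on 12 and 7 UMIs, 0.30 (-1.17 to 1.88). Of the 100 UMIs left after depletion, 71.0% were in cluster 1 at 8.01 CPM, and none was in the 400 monocytes of cluster 7. Within cluster 0 Igf1 was lower after depletion, at 56.2 and 16.5 CPM (3.41 to 48.3), the latter from 3 UMIs, and in clusters 1, 4 and 7 the intervals overlapped. The thinned share of lineage cells with a UMI was 2.19% and 0.578%, and 9.26% and 1.53% unthinned. In pDC-like cells of control tumor it was 0 thinned and 1.75% unthinned. RNA outside cells followed the same direction, with 38.3 CPM in control tumor and 6.04 CPM after depletion.

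Osm, at chr11:4236420-4241026 on the plus strand, encodes oncostatin M. It had 56 UMIs in blood (2.82 CPM), 5371 in control tumor (139 CPM) and 3186 in the Treg-depleted tumor (164 CPM). Blood was lowest, with a log2 ratio of control tumor over blood of 5.62 (5.24 to 6.03), and 6.82 (6.27 to 7.42) in the monocyte range. Its order over the ranges was the reverse of that of Igf1. Control tumor had 272, 195 and 118 CPM from the monocyte to the macrophage range, and the Treg-depleted tumor 213, 150 and 130 CPM. Neutrophil-like cells were higher than any range, at 356 CPM (276 to 453) in 40 cells of control tumor and 497 CPM (418 to 586) in 102 cells after depletion. The sort removed Ly6G+ cells, so these are the neutrophil-like cells that remained.

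The lineage level of Osm was 158 CPM and 167 CPM (log2 0.08, 0.01 to 0.15), but it was lower after depletion in the monocyte range (-0.35, -0.47 to -0.23) and middle range (-0.37, -0.50 to -0.25) and slightly higher in the macrophage range (0.15, 0.01 to 0.28). Within clusters 0, 4, 7 and 8 the intervals of the tumors overlapped, and cluster 1 was higher after depletion, at 77.1 and 145 CPM. Its level outside cells was 202 CPM in control tumor and 276 CPM after depletion, above the lineage level of each library. The thinned share of lineage cells with a UMI was 14.2% and 13.2%, and 46.5% and 34.3% unthinned, beside 5.26% and 15.8% in pDC-like cells of control tumor. The 6 genes listed as STAT3 targets include Stat3 itself and are not specific to STAT3. None reached 2-fold in either direction in the lineage after depletion (10.5% and 9.65% of all genes), with a median log2 ratio of -0.23. The feedback inhibitor Socs3 was at 338 and 199 CPM (-0.77), and Cish at 48.8 and 81.2 CPM (0.73). Between blood and control tumor, 5 of the 6 were at least 2-fold higher in the tumor and none lower (15.8% and 24.4% of all genes).

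**Figure D3:**
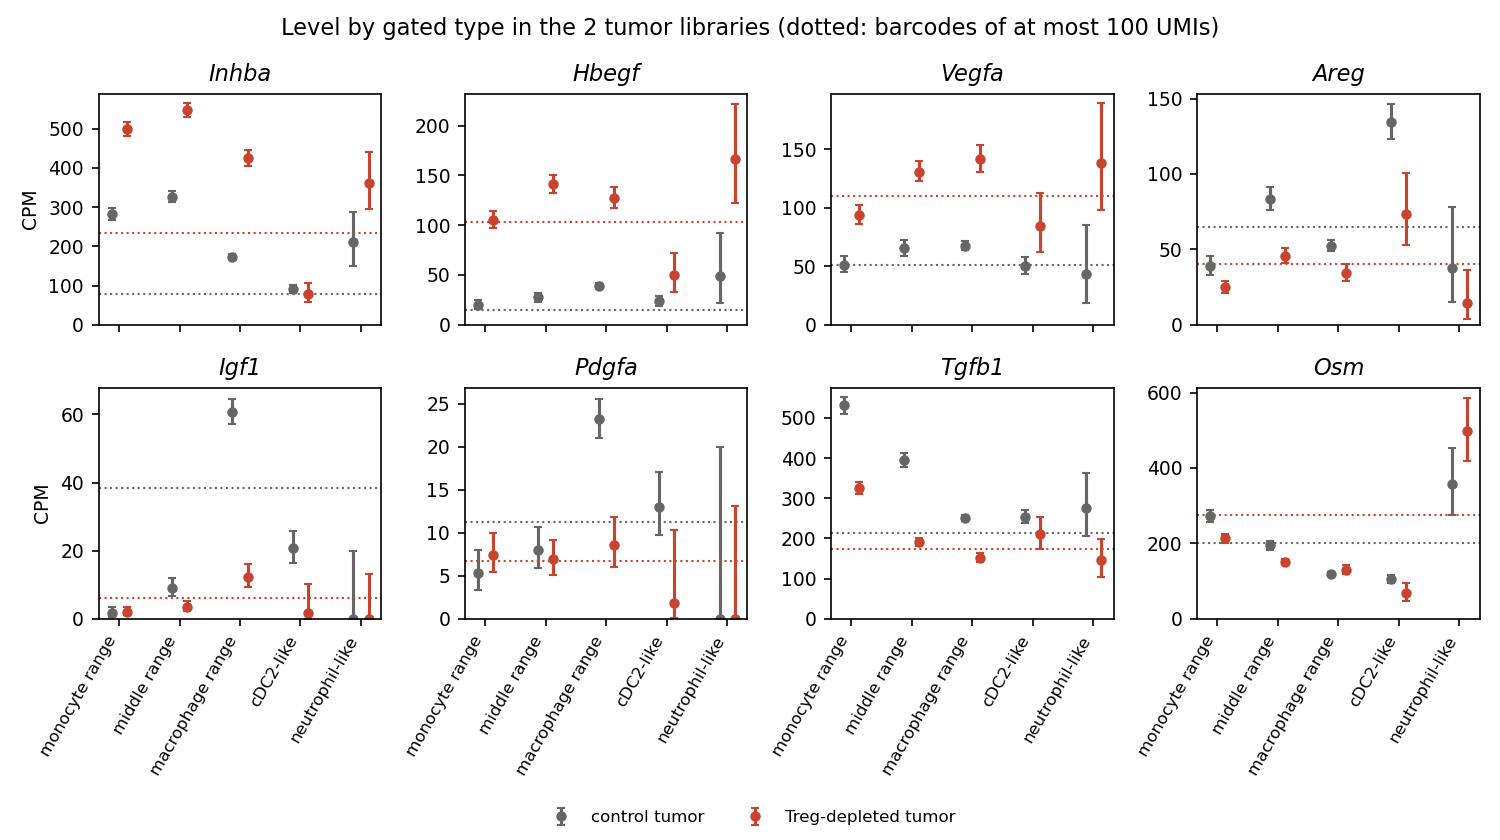
Level in CPM of 8 of the genes in 5 gated cell types of the control tumor (grey) and the Treg-depleted tumor (red). Points are summed levels, bars 95% Poisson counting intervals and dotted lines the level in barcodes of at most 100 UMIs of the same library; each panel has its own axis from 0. Igf1 and Pdgfa peak in the macrophage range of control tumor, at 60.8 and 23.2 CPM, and Tgfb1 and Osm are lower from the monocyte to the macrophage range of control tumor.

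**Figure D4:**
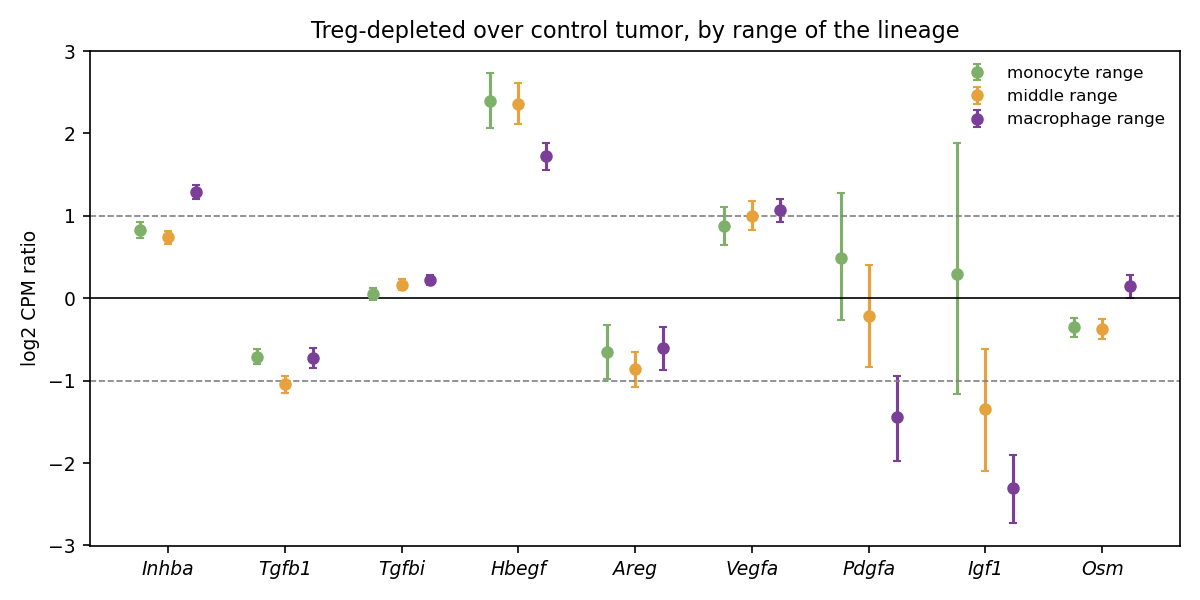
Log2 ratio of the CPM in the Treg-depleted tumor over control tumor for 9 genes, in the monocyte, middle and macrophage range of the lineage. Bars are 95% counting intervals, the solid line marks no difference and the dashed lines mark 2-fold. Hbegf is above the upper line in all 3 ranges, Tgfb1 and Areg are below 0 in all 3, and Igf1 and Pdgfa are lowest in the macrophage range.

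In the single ranges, the counts past 2-fold after depletion differed with the range. In the monocyte range 1 of 9 genes was higher and none lower, where 13.2% and 6.82% of all genes were. In the middle range 2 were higher and 2 lower of 9, where 14.5% and 8.46% were. In the macrophage range 4 were higher and 2 lower of 10, where 13.6% and 9.75% were. Among cells with type 2 dendritic cell markers 1 was higher and 2 lower of 9, where 16.2% and 8.04% were, and both lower genes, Igf1 and Pdgfa, rest on 1 UMI after depletion.

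Some of the genes were found together in the same cells. Lineage cells were divided by whether they held an Inhba UMI among 1000 drawn, 473 of 3563 cells in control tumor and 1018 of 3978 after depletion. Hbegf was higher in the cells with Inhba in both libraries, by log2 1.31 (0.68 to 1.90) and 0.70 (0.44 to 0.96). Areg was also higher in both, by 0.68 (0.08 to 1.23) and 0.75 (0.23 to 1.26). Vegfa was higher after depletion, by 0.68 (0.42 to 0.93), but in control tumor its ratio was 0.10 (-0.47 to 0.63). Osm was higher in control tumor, by 0.41 (0.10 to 0.71), but after depletion its ratio was 0.15 (-0.11 to 0.39). Tgfbi was lower in the cells with Inhba in both, by -0.25 (-0.45 to -0.06) and -0.43 (-0.57 to -0.30), and Tgfb1 was at -0.04 (-0.28 to 0.19) and 0.01 (-0.22 to 0.23). Cells of 1 library share their source, so these ratios describe 2 libraries. The division also pools the clusters of the lineage. After depletion, cluster 1 held 85.2% of the Inhba UMIs, with Vegfa at 172 CPM and Tgfbi at 606 CPM. Cluster 3 had them at 82.8 and 821 CPM. How far the ratios restate the clusters was not tested.

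Genes with the most similar pattern were sought over 19 combinations of gated type and library, by Pearson's r of log2(CPM + 5) among 4885 genes. These points share libraries and depth, and most of the 10 genes are rare in every blood type, so r also describes that contrast. The closest genes to Inhba were Mdm2 (r = 0.99), Phlda1 (0.98) and Ptgs2 (0.98). For Hbegf they were Edn1, Pdpn and Ero1l, each at 0.98. For Vegfa they were Mdm2, Adam8 and Lhfpl2, each at 0.98. Igf1 had Syngr1 (0.99), Ms4a7 (0.94) and Uap1l1 (0.89), and Osm had Slc7a11, Gla and Cflar, each at 0.97. Areg had Got1 and Etv3 (0.96) and Cd86 (0.95), Tgfbi had Guca1a, Ccl9 (0.95) and Tmem106a (0.92), and Tgfb1 had lower values, with Ms4a6b at 0.88, Casp1 at 0.86 and Lyz1 at 0.86. Over the 12 tumor combinations alone, Hbegf and Vegfa had r = 0.90 and Inhba and Vegfa 0.85, while Inhba and Areg had -0.08.

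The ligands that belong to the same families but are not among the 10 genes were mostly rare. Of 35 other ligands, 19 could be counted in the lineage, of which 3 were at least 2-fold higher and 6 lower after depletion (10.5% and 9.65% of all genes), with a median log2 ratio of -0.15. Gdf15, a distant member of the transforming growth factor family, was at 102 CPM in control tumor and 15.7 CPM after depletion (log2 -2.69, -2.88 to -2.51). Csf1, the growth factor of macrophages themselves, was at 10.2 and 30.8 CPM (1.60, 1.39 to 1.82). The interleukin-6 family members Il6 and Lif, relatives of Osm, had 0.08 and -0.15. Between blood and control tumor 14 of 20 were at least 2-fold higher in the tumor and 2 lower (15.8% and 24.4% of all genes).

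The proteins that release, hold or bind these factors divided. Of 23 processing and latency genes found, 17 were counted, and 6 were at least 2-fold higher and 3 lower after depletion, where 10.5% and 9.65% of all genes were (median log2 0.09). Furin, the protease that cleaves the precursors of activin and transforming growth factor beta, was at 132 and 269 CPM (1.03, 0.97 to 1.10). Rhbdf2, which brings the shedding protease of Hbegf and Areg to the cell surface, was at 30.5 and 63.9 CPM (1.07, 0.94 to 1.20). The protease itself, Adam17, had 0.09 (-0.02 to 0.19). Nrros and Lrrc32, which hold latent Tgfb1 at the surface of cells, both had -1.01, and Itgb5, an integrin chain that can take part in its activation, was at 32.8 and 4.24 CPM (-2.95). These were the 3 lower genes. Among the 6 higher were Itgb3, another integrin chain, at 0.185 and 2.85 CPM (3.95, 2.63 to 5.63, from 5 and 49 UMIs), and Ltbp3 (1.70, 0.80 to 2.66, from 16 and 33 UMIs). Thbs1 was at 1134 and 1354 CPM (0.25). Of 8 secreted binders and inhibitors counted, 2 were higher and 5 lower, read against the same shares (median -1.14). Of those lower, Sparc (23 and 7 UMIs), Igfbp7 (11 and 3) and Nbl1 (9 and 1) have intervals that include no difference. Fst, the inhibitor of activin, was low but higher after depletion, at 0.775 and 3.83 CPM (2.31, 1.58 to 3.09), and Igfbp4, a binder of Igf1, was at 11.2 and 1.28 CPM (-3.14, -3.83 to -2.51).

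Receptors and downstream genes were measured in the same myeloid cells. Of 19 receptor genes counted in the lineage, 4 were at least 2-fold higher and 1 lower after depletion, where 10.5% and 9.65% of all genes were (median log2 0.24). Flt1, a receptor of Vegfa, was at 19.9 and 106 CPM (2.42, 2.28 to 2.56), Il6st, the shared signalling chain of the Osm receptor, at 21.2 and 74.0 CPM (1.80, 1.66 to 1.95), and Igf1r at 4.87 and 11.3 CPM (1.21, 0.88 to 1.54). Osmr itself had only 1 UMI in the lineage of each tumor, Egfr had 0 and 1, and Pdgfra had none. Tgfbr1 and Tgfbr2 had lower levels after depletion, short of 2-fold, with log2 ratios of -0.41 and -0.99. Of 16 genes of the SMAD pathway and its feedback, 6 were at least 2-fold higher and 1 lower, read against the same shares (median 0.46). Those higher included Pmepa1 at 8.57 and 31.9 CPM (1.90), Smad7 at 11.0 and 25.2 CPM (1.19) and Id1 at 7.90 and 32.3 CPM (2.03), while Id3 was lower, at 56.5 and 21.7 CPM (-1.38). Between blood and control tumor, receptors were 4 higher and 6 lower of 20, near the 15.8% and 24.4% of all genes, and SMAD pathway genes 5 higher and 1 lower of 16.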

How the data were processed

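Droplet 3' single-cell libraries of sorted mouse myeloid cells were measured, with 3 libraries, 1 per group. The authors deposited UMI counts per gene and barcode for all barcodes. Per the submitters' processing notes, Cell Ranger 1.2 and mm10 were used, and other settings are not given in the sources used here. A cell needed 1000 UMIs or more, 400 genes or more and no more than 10% mitochondrial UMIs. Control blood held 22944387 UMIs in total, control tumor 42493416 and the Treg-depleted tumor 23291061. Types came from gates on detected markers. Lineage cells passed no other gate and had at least 2 general lineage markers, and nonclassical monocytes were gated in blood alone. Cells passing 2 gates (55, 190 and 28) were left out of types as likely doublets, and a simulated-doublet score was an alternative. Leiden clusters (scanpy 1.11.5) left out the 10 genes.

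Levels were summed UMIs per 1000000 (CPM) with exact Poisson intervals, ratios had exact conditional intervals (scipy 1.17.1), and shares of cells were computed after thinning to 1000 UMIs. A count of 0 was set to 3 UMIs in a ratio, and no ratio was given where both counts were 3 or fewer. With 1 library per group no p-value can be given, and 2-fold was the line for higher or lower. The ratio step was tested on simulated data. All 10 genes are named, with genes of lists on their pathways and, for members at 50 CPM or more in some type, the 3 genes of most similar pattern. The members, lists, gates and clusters were chosen with earlier results of these data known. Alternatives were other cell, mitochondrial and doublet filters, another scaling, equal weight per cell, subtraction of RNA outside cells, a minimum of 20 UMIs, cluster-based types, stricter gates and other thinning. Others, chosen after seeing the data, were leaving out shared barcodes, matched types, equal range weights and all cells.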

Additional observations from a re-analysis of the deposited data

Results flagged for a closer look

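Osm had ratios of opposite sign between types under the same contrast. After depletion its log2 ratio was 0.15 in the macrophage range, -0.35 in the monocyte range, -0.37 in the middle range and -0.63 among cells with type 2 dendritic cell markers, whose macrophage markers were 6.94-fold lower after depletion. The dendritic cluster 8 had Osm at 56.4 and 54.4 CPM, with overlapping intervals. Tgfb1 did so between tumor and blood, with 0.30 in the monocyte range and -0.29 among cells with type 2 dendritic cell markers. The intervals of these ratios exclude 0, but with 1 library per group the differences between types were not tested.

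Barcodes of at most 100 UMIs in control blood, which enter the comparisons only where RNA outside cells is subtracted as an alternative, held genes that blood cells nearly lack. Inhba was at 22.3 CPM (40 UMIs), against 0.555 CPM in blood cells. Hbegf was at 2.79 CPM, Areg at 8.92 CPM, Vegfa at 7.25 CPM, Igf1 at 5.58 CPM and Osm at 21.2 CPM. Of the 40 Inhba UMIs, 39 (97.5%) were in barcodes that are cells in a tumor library, as were 15 of 16 Areg UMIs and 214 of 250 UMIs of the macrophage gene C1qa, against 9.94% of the UMIs of all genes. Of the UMIs in blood cells, none of 11 for Inhba, 1 of 2 for Areg and 3 of 56 for Osm were in the 61 of 5550 blood cells whose barcode is also a tumor cell. An exchange of molecules between libraries was not tested.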

How the results depend on the processing

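The counts of genes past 2-fold kept their size (within 1.5 times) under each alternative with 1 exception. Lower genes after depletion were 2, and 1 with equal weight per cell, where Pdgfa had -0.83. Higher genes after depletion were 3, with 4 under equal weight per cell and equal range weights, where Vegfa reached 1.06 and 1.03, and 2 where 20 UMIs were asked for, which leaves out Ereg. Over 182 log2 ratios computed under alternatives, none past 2-fold reversed, and 39 lay outside the main counting interval. Of 19 ratios, 17 kept their sign. Osm after depletion ranged from -0.10 to 0.24, and Tgfb1 between tumor and blood was 0.30 in the monocyte range; the cause was not tested. Igf1 between tumor and blood ranged from 1.37 to 9.40. With RNA outside cells subtracted, at 10% of the UMIs of each library, the ratio to blood was 10.17 for Inhba, 7.39 for Osm and 9.40 for Igf1. The subtraction took all 11 blood UMIs of Inhba, so its ratio rests on the 3 UMIs set for a count of 0. It also took most of the 12 Igf1 and 56 Osm UMIs in blood. In blood, 39 of the 40 Inhba UMIs outside cells were in barcodes that are tumor cells. These 3 ratios are therefore not estimates of a level in blood. Shares of cells with a UMI depend on the depth they are read at. No paired analysis was possible because each group has 1 library, and for the same reason no library could be left out. Ereg in all libraries, and the members other than Tgfb1 and Tgfbi in blood, rest on 56 UMIs or fewer, which widens their intervals.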
